A study of Mus musculus with 6 samples.

Results

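The 10 genes described here were measured in activated CD8 T cells with and without Utx. Those of the canonical Wnt pathway and its nuclear end are the transcription factors Lef1 and Tcf7, the co-activator Ctnnb1, the kinase Gsk3b, and the regulators Axin2, Frat1, Frat2 and Rnf43. The others, Sox4 and Sox12, are HMG-box factors related to Lef1 and Tcf7. The set is 10 of 25655 Ensembl identifiers in the series. All 10 were among the 10590 genes tested, those that reached 1 CPM in at least 3 libraries. CPM are reads of a gene scaled to a common library total. The genes were chosen by name from a comparison of these same libraries, so their differences between genotypes are given as descriptions with no test. Most of them stood higher in Utx KO cells: 8 of 10 had all 3 Utx KO libraries above all 3 WT libraries, against 14.0% of tested genes. Among the 8, Lef1 led in level (107 to 248 CPM) and Rnf43 in fold (0.782 to 11.1 CPM). Ctnnb1 was slightly lower and Gsk3b was level.

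The series compared 3 WT and 3 Utx KO libraries from CD8 T cells of the spleen of female C57BL/6 mice. Utx, encoded by Kdm6a, is a demethylase of lysine 27 on histone H3. In both genotypes, naive cells (CD44-low, CD62L-high) were activated with immobilized anti-CD28 (1 µg/ml) and anti-TCR-beta (3 µg/ml). The antibodies were left for 2 days, and the cells then spent 3 days in interleukin 2 without the antibodies, so all libraries stand at day 5. Interleukin 2 (10 ng/ml) was present throughout. The sources used here do not give the deleted part of Kdm6a, a Cre driver, or whether each replicate was a separate animal. The p-values below therefore measure the spread between these samples. They come from limma, adjusted over all tested genes, and a gene is said to pass, rise or fall where the adjusted p is under 0.05.

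In canonical Wnt signalling, beta-catenin (Ctnnb1) is kept low by a destruction complex of Axin, Apc, casein kinase and Gsk3. Wnt binding to Frizzled and Lrp receptors stalls that complex, and beta-catenin then enters the nucleus and pairs with TCF/LEF factors, which otherwise sit with Groucho/TLE co-repressors. In CD8 T cells Tcf7 (encoding TCF-1) and Lef1 are best known as factors of the naive and memory states, whose expression falls during effector differentiation.

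The 3' ends, from which the reads come, were distinct. None of the 10 genes shared a 50-nt piece of the last 300 nt of its coding transcripts with another gene. Exons of an opposite-strand gene overlap Lef1 (Gm43352), Sox4 (Gm26735), Axin2 (Gm11670) and Ctnnb1 (Ulk4), and Mir7090 lies on the strand of Ctnnb1. Whether reads were counted by strand is not given in the sources used here, so those reads cannot be told apart.

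The libraries held 1619085 to 2529113 reads, and 3 reads corresponded to 1.19 to 1.85 CPM. Kdm6a itself was at 49.1 ± 4.67 CPM in the WT libraries, against 32.9 ± 5.93 CPM in Utx KO (SD, n = 3). The limma fit gave it a log2 fold change of -0.57 (adjusted p = 0.0123, with 0.00510 to 0.0985 over the alternatives; 4 of these missed the threshold, namely DESeq2 and the fits that lacked library 2 or 3 of WT or library 1 of Utx KO), but a 3' tag outside the deleted part would not check the label. All 8 CD8 T-cell markers were detected. Their summed level was 2899 to 3021 CPM in WT, against 2958 to 3002 CPM in Utx KO. Of 4 CD4 T-cell markers, Cd4 itself was at 0 in every library, but Foxp3 and Zbtb7b had reads in every library. Foxp3 averaged 9.35 CPM over WT libraries and 7.31 CPM over Utx KO libraries, and Zbtb7b averaged 6.13 and 4.76 CPM. Neither passed (limma adjusted p = 0.568 and 0.663). Single genes of the CD8 T-cell list moved in both directions: 5 of 8 passed in limma, against 10.8% of tested genes. Cd3e, Cd3d and Cd8b1 rose (log2 fold changes of 0.32, 0.30 and 0.19), and Cd2 and Thy1 fell (-0.30 and -0.40). Of 38 markers of other cell types, 22 were at 0 in every library, and none of the 6 tested by limma passed, with 2 at an unadjusted p under 0.05 (edgeR: 0 of 4 passed, 1 at that p; DESeq2: 0 of 16, with 0 at that p). The summed B-cell markers were at 2.76 to 5.47 CPM in WT, against 0.571 to 1.99 CPM in Utx KO, and 4 of the 7 were at 0 in every library. The summed dendritic-cell markers, of which 2 of 4 were at 0 in every library, were at 6.45 to 11.1 CPM in WT and 1.99 to 5.56 CPM among Utx KO libraries. The part of these cell types in the results was not tested. In bulk RNA, fewer cells expressing a gene and less RNA per cell cannot be told apart.

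The sequences before the start sites give the genomic setting of the genes described here. RefSeq start sites (build GRCm38.p6) were found for all 10 genes, with 16 windows of 250 upstream bases. Each was searched on both strands for the 7-letter TCF/LEF forms CTTTGAA or CTTTGAT and for the forms CTTTGTA or CTTTGTT. The last pair overlaps the Sox core ACAAAG on the other strand. One window of 16 (6.25%) held a match, against 10.0% of 10747 windows of tested genes. Of the 16 windows, 5 overlapped an annotated exon of their own gene. The first Tcf7 window held an ATG with 55 codons open to its end, which 8.55% of all windows matched or exceeded, so it may be transcribed. Without these, 1 of 10 windows held a match. The matching window lies inside Lef1, in an intron before an internal start site, at chr3:131156044-131156293 (plus strand). The match, shown in capitals, begins 147 bases before that start.
Lef1 internal start: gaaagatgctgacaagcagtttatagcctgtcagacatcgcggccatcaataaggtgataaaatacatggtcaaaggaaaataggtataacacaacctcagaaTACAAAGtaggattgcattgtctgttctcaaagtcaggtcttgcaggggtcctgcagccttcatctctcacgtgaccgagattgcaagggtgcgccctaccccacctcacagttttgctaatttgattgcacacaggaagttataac
The upstream sequence of Axin2, a textbook Wnt target, held none of those letters, and that of Rnf43 before its second listed start site, inside the gene, held none either. They are shown for their unlike CpG content, with CG in capitals. The Axin2 window (chr11:108920099-108920348, plus strand) has 24 CG pairs and the Rnf43 window (chr11:87699647-87699896, plus strand) has 2. Windows of tested genes had a median of 16, with quartiles of 9 and 23. The window before the first Rnf43 start, which overlaps an exon of that gene, has 8. Axin2 is not the richest of the 10 genes, since the Ctnnb1 windows have 35 and 43.
Axin2: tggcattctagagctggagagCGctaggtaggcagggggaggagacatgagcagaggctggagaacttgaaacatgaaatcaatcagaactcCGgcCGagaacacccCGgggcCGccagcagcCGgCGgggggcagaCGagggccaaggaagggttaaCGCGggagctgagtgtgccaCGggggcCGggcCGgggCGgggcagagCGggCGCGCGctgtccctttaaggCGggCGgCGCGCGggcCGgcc
Rnf43 second start: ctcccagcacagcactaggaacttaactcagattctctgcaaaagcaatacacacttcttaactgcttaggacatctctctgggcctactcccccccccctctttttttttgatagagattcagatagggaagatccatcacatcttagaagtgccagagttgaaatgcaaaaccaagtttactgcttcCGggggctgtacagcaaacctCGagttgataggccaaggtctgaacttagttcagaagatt
The sequences of Frat1 (chr19:41829720-41829969, plus strand) and Frat2 (chr19:41848133-41848382, minus strand) are shown because these paralogs lie side by side and share letters next to their starts. Capitals mark every run of at least 12 letters found in both windows. A run of 14 letters and a run of 13 letters, 1 base apart, end at the start of Frat1 and 4 bases before that of Frat2. Neither run occurred in any of the other windows searched, out of 32851 in all.
Frat1: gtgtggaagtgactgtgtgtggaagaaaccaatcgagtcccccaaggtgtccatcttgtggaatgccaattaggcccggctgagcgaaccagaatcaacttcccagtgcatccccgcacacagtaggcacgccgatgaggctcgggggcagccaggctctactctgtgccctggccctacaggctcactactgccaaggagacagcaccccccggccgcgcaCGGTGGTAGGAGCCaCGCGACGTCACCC
Frat2: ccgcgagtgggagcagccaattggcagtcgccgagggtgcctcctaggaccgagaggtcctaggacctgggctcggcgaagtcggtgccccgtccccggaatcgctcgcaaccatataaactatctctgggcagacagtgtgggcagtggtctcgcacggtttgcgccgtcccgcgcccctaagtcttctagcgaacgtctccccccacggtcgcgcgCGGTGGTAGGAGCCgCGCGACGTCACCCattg

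Among the TCF/LEF factors, Lef1 (ENSMUSG00000027985, GRCm38 chr3:131110471-131224356, plus strand) was the more abundant. It was at 103, 97.7 and 119.8 CPM in WT libraries 1, 2 and 3. Utx KO libraries 1, 2 and 3 held 228, 270.2 and 246 CPM. Every Utx KO library lay above every WT library, and the lowest Utx KO value was well clear of the highest WT value. The means were 107 ± 11.6 and 248 ± 20.98 CPM (SD, n = 3), a log2 fold change of 1.21 (SE 0.09) on the log2(CPM + 1) scale, which understates the change of low genes. Pooled over libraries, the ratio of Utx KO to WT was 2.32, with an exact 95% interval of 2.12 to 2.54 that covers counting error only, as do all such intervals here.

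Tcf7 (ENSMUSG00000000782, chr11:52252371-52283014, minus strand) was at 30.1, 25.8 and 24.1 CPM in WT, against 42.5, 37.7 and 42.6 CPM in Utx KO. The groups did not overlap, although the gap was smaller than for Lef1. Its means were 26.6 ± 3.07 and 40.9 ± 2.81 CPM (SD, n = 3), a log2 fold change of 0.60 (SE 0.15) and a pooled ratio of 1.52 (1.25 to 1.86). The tags come from the 3' end, so the long TCF-1 protein form, which binds beta-catenin, and the short form, which does not, are not separated by these values.

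Because both factors read the same DNA motif, their balance was also set out within each library, on reads. Lef1 gave 3.42, 3.79 and 4.98 reads per Tcf7 read in WT, and 5.37, 7.17 and 5.77 in Utx KO. The ratio was thus higher in each Utx KO library than in any WT library, with means of 4.06 ± 0.814 and 6.10 ± 0.942 (SD, n = 3). The level of Lef1 and Tcf7 together went from 133 ± 10.2 to 289 ± 18.5 CPM, and the Lef1 share of it from 79.9 ± 3.03% to 85.8 ± 1.78%. The other members of the family contributed little: Tcf7l1 was at 1.69 CPM in WT, against 3.31 CPM in Utx KO (limma adjusted p = 0.390), and Tcf7l2 had 2 reads in WT and 1 in Utx KO.

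**Figure D1:**
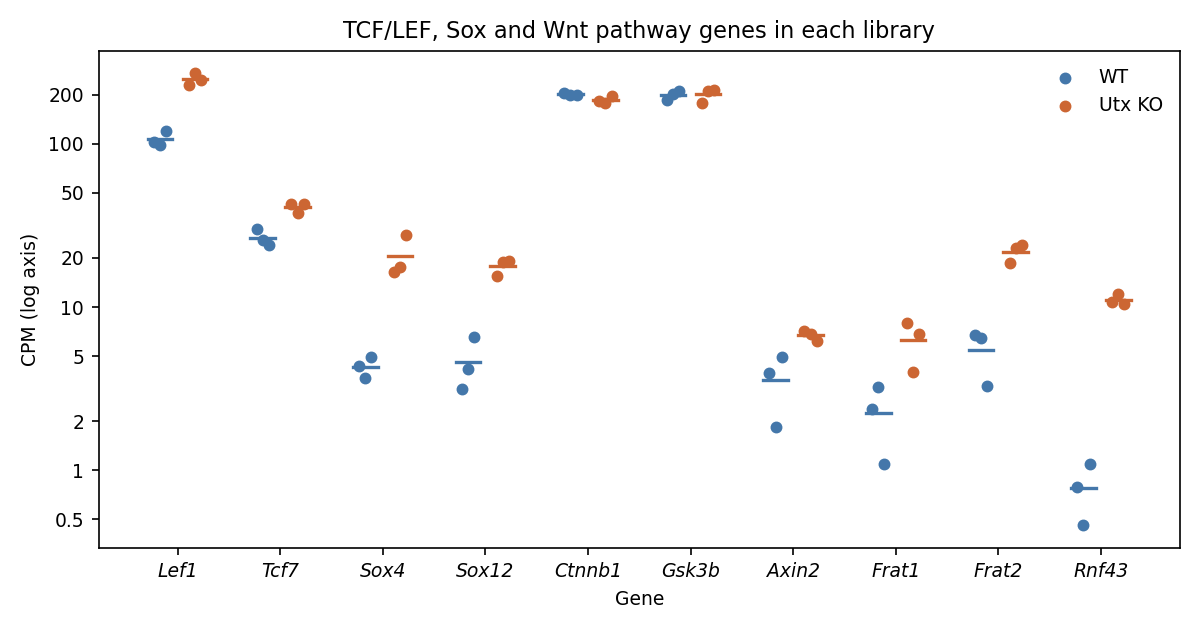
CPM of each of the 10 genes (log axis) in each WT (blue) and Utx KO (orange) library, with a line at each group mean. Lef1 goes from 107 to 248 CPM on the means, past Ctnnb1 (202 and 187 CPM), and Rnf43 has the widest gap (0.782 and 11.1 CPM).

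Sox4 and Sox12 are SoxC transcription factors, whose HMG box is related to that of the TCF/LEF family. Sox4 (ENSMUSG00000076431, chr13:28948919-28953713, minus strand, a single-exon gene) was at 4.35, 3.69 and 4.92 CPM in WT, against 16.3, 17.7 and 27.8 CPM in Utx KO, the third Utx KO library being the highest. The groups were far apart, with 28 reads in WT and 117 in Utx KO. The log2 difference was 1.99 (SE 0.27), with a pooled ratio of 4.63 (3.05 to 7.27).

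Sox12 (ENSMUSG00000051817, chr2:152393611-152398063, minus strand) had a like level, at 3.16, 4.15 and 6.57 CPM in WT, against 15.5, 18.9 and 19.1 CPM in Utx KO. Its groups did not overlap either. The log2 fold change was 1.78 (SE 0.28), and the pooled ratio was 3.94 (2.59 to 6.17) from 29 and 103 reads. Reads of Sox4 per read of Sox12 overlapped between genotypes, with means of 1.00 ± 0.328 in WT and 1.15 ± 0.269 in Utx KO (SD, n = 3). The rest of the Sox family was near the limit of detection: of 17 further genes, 12 were at 0 in every library, no library exceeded 1.19 CPM, and none reached the level needed for a test. Without the filter on low values 5 of them could be tested by limma and none passed, with 2 at an unadjusted p under 0.05; DESeq2 called none of 5, with 0 at that p.

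Beta-catenin itself showed no such gap. Ctnnb1 (ENSMUSG00000006932, chr9:120929216-120960507, plus strand) was at 205, 200.4 and 200.3 CPM in WT, against 184, 179 and 198 CPM in Utx KO. All 3 Utx KO libraries lay below the WT libraries, the third by a narrow margin. The log2 fold change was -0.11 (SE 0.07), and the pooled ratio of 0.921 had a counting interval of 0.849 to 0.999. Lef1 reads per Ctnnb1 read were 0.502, 0.487 and 0.598 in WT and 1.24, 1.51 and 1.24 in Utx KO, so Lef1 transcripts were fewer than Ctnnb1 transcripts in each WT library and more in each Utx KO library.

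Gsk3b (ENSMUSG00000022812, chr16:38089001-38246084, plus strand), the kinase that marks beta-catenin for breakdown, was at 186, 202 and 211 CPM in WT, against 178, 210.2 and 215 CPM in Utx KO. These ranges overlapped almost fully. Its log2 fold change was 0.01 (SE 0.08), and the pooled ratio of 0.997 had a counting interval of 0.921 to 1.08.

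Axin2 (ENSMUSG00000000142, chr11:108920349-108950783, plus strand) is a scaffold of the destruction complex and, as a target of beta-catenin, a feedback inhibitor of the pathway. It was at 3.95, 1.84 and 4.92 CPM in WT, against 7.15, 6.85 and 6.18 CPM in Utx KO. All Utx KO libraries were above WT, yet the values rest on 23 and 40 reads. The log2 fold change was 0.82 (SE 0.34), and the pooled ratio was 1.93 (1.13 to 3.37). Its paralog Axin1, a core scaffold of the complex, was far more abundant, at 39.6 CPM in WT, against 47.7 CPM in Utx KO, and did not pass (limma adjusted p = 0.323).

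Frat1 and Frat2 encode proteins that bind Gsk3 and keep it from Axin. Frat2 (ENSMUSG00000047604, chr19:41845972-41848132, minus strand) was at 6.72, 6.45 and 3.28 CPM in WT, against 18.7, 22.8 and 24.1 CPM in Utx KO. The groups were well separated, with a log2 fold change of 1.86 (SE 0.27) and a pooled ratio of 3.78 (2.60 to 5.60) from 37 and 126 reads. Frat1 (ENSMUSG00000067199, chr19:41829970-41832583, plus strand) was lower throughout, at 2.37, 3.23 and 1.09 CPM in WT, against 7.94, 3.998 and 6.79 CPM in Utx KO. Its groups did not overlap but came close, on 15 and 38 reads. Frat1 had a log2 fold change of 1.18 (SE 0.38), and the pooled ratio was 2.81 (1.51 to 5.50). Reads of Frat2 per read of Frat1 overlapped between genotypes.

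Rnf43 (ENSMUSG00000034177, chr11:87662722-87735539, plus strand) encodes a membrane ubiquitin ligase that removes Frizzled receptors and is itself a Wnt target in several tissues. It had 2, 1 and 2 reads in the WT libraries and 27, 21 and 17 in the Utx KO libraries, which is 0.791, 0.461 and 1.09 CPM against 10.7, 11.99 and 10.5 CPM. WT was thus under the level of 3 reads in every library, and the gene entered the tested set through its Utx KO values. The log2 fold change was 2.77 (SE 0.35), a value that depends on the pseudocount: it was 3.73 with 0.1 CPM added and 1.48 with 5 CPM added. The pooled ratio, which needs no pseudocount, was 14.4, with a wide counting interval of 5.87 to 45.9.

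The sister ligase Znrf3, with the same role at the membrane, did not pass, at 17.1 CPM in WT, against 13.6 CPM in Utx KO (limma adjusted p = 0.429). Reads of Rnf43 per read of Znrf3 went from 0.0465, 0.0303 and 0.0571 in WT to 0.871, 0.875 and 0.708 in Utx KO. Rnf43 was therefore rare beside Znrf3 in WT cells and nearly as frequent in Utx KO cells.

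**Figure D2:**
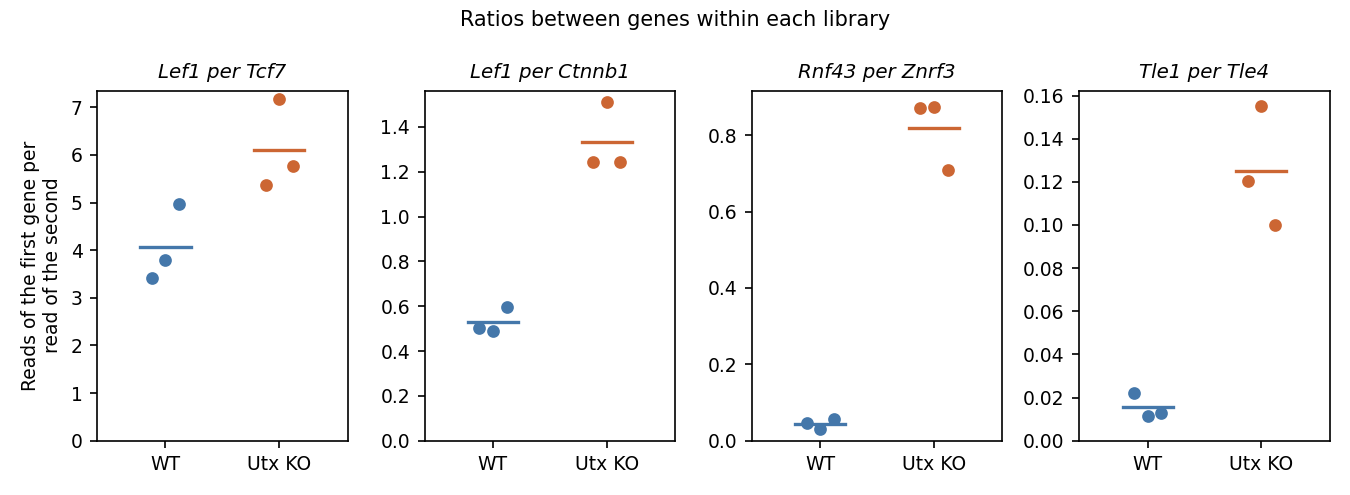
Reads of the first gene per read of the second in each library (points), with a line at each group mean; each panel has its own axis from 0. In all 4 panels the 3 Utx KO libraries lie above the 3 WT libraries, from 4.06 to 6.10 on the means for Lef1 per Tcf7 and from 0.0447 to 0.818 for Rnf43 per Znrf3.

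Set against the whole table, groups did not overlap for 9 of the 10 genes, against 26.5% of tested genes, and 8 of those had Utx KO above, against 14.0%. The genes were picked on this contrast, so nothing is read from these counts. Their median log2 fold change was 1.20, and that of all tested genes was 0.01. Levels can be ordered because a 3' library counts about one tag per transcript. Ctnnb1 and Gsk3b held the first places in each WT library and Lef1 came next, whereas Lef1 came first in each Utx KO library. Ctnnb1 and Gsk3b did not differ beyond their spread in WT, and Tcf7 followed behind these genes in all 6 libraries. The lower 6 genes (Frat2, Sox12, Sox4, Axin2, Frat1 and Rnf43 by WT mean) were all under 10 CPM in WT, and 2 of them, Axin2 and Frat1, remained there in Utx KO. Ranges among the nearest of these overlapped in WT, except that Rnf43 lay at or under the lowest value of each of the others. In Utx KO the order was Frat2, Sox4, Sox12, Rnf43, Axin2 and Frat1. The first 3 of these overlapped, as did Axin2 with Frat1, and Rnf43 lay between both sets without overlap.

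**Figure D3:**
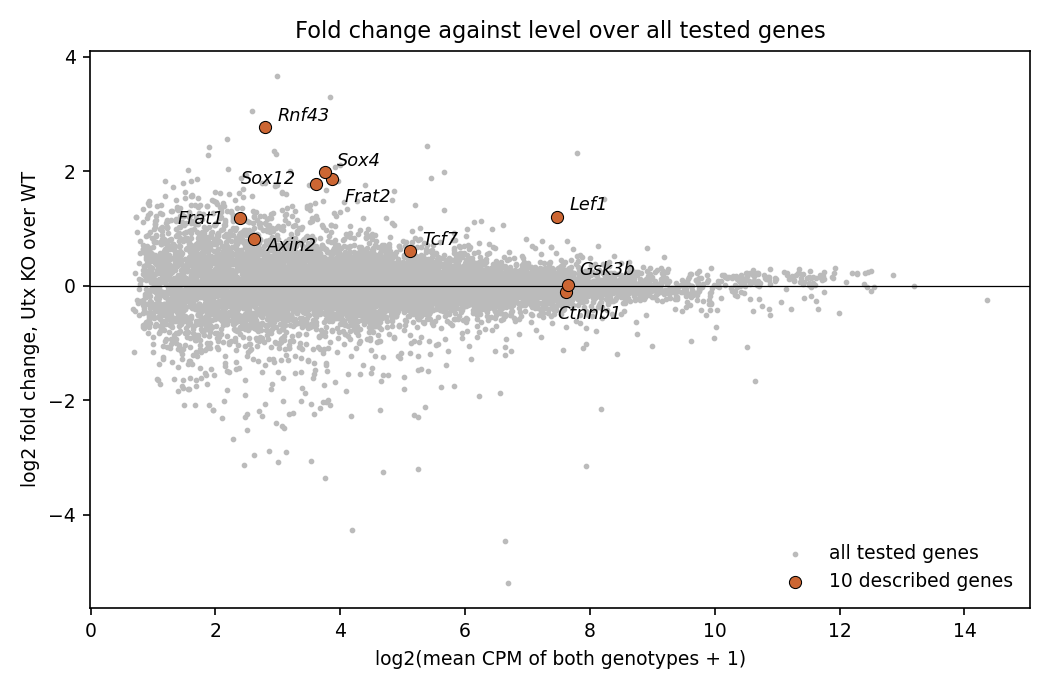
Log2 fold change of Utx KO over WT against log2(mean CPM + 1) for the 10590 tested genes (grey), with the 10 genes described here in orange. Lef1 (1.21) and Rnf43 (2.77) stand above most genes of like level, while Ctnnb1 (-0.11) and Gsk3b (0.01) lie in the midst of theirs.

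A list of 118 further genes of the Wnt pathway had 117 measured and 57 tested, of which 9 (15.8%) passed in the limma fit: 6 rose (Ryk, Csnk1e, Bcl9, Bcl9l, Tle1 and Ctnnbip1) and 3 fell (Apcdd1, Tle4 and Cd44). Over all tested genes 10.8% passed, with 5.28% higher in Utx KO, and the list had a median of 0.06 in log2 fold change. DESeq2 called only Tle1, with 10 genes at an unadjusted p under 0.05, and with Utx KO replicate 2 or 3 left out 5 genes passed. Without Utx KO replicate 2 these were 4 of the 9 and Tbl1xr1, a co-repressor subunit gene (log2 fold change -0.27, limma adjusted p = 0.0295, against 0.0663 with all libraries). With a single library left out, the threshold was missed by Ryk (WT 1, WT 3, Utx KO 2 or Utx KO 3), Bcl9l (WT 2, WT 3, Utx KO 2 or Utx KO 3), Apcdd1 (WT 2, WT 3 or Utx KO 3), Csnk1e (WT 1, Utx KO 2 or Utx KO 3), Tle4 (WT 1 or Utx KO 1), and Ctnnbip1 and Cd44 (Utx KO 2), but not by Tle1 or Bcl9. None of the 24 ligands and agonists reached the level needed for a test, and 19 were at 0 in every library. No library had more than 1.14 CPM of any of them, so no transcript of a Wnt ligand was detectable beyond that level.

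Partners of the TCF/LEF factors in the nucleus were the role with the most tested genes, and 5 of 19 passed (26.3%, against 10.8% of all tested genes). The median log2 fold change of the 19 was 0.03. The list was written with earlier results of these libraries known, so nothing is read from this share. Tle1, a Groucho co-repressor, had 1.98, 0.922 and 1.09 CPM in WT, against 6.75, 10.3 and 6.79 CPM in Utx KO (log2 fold change 1.94, SE 0.36, limma adjusted p = 0.000584, and 0.000265 to 0.0120 over the alternatives). The WT values rest on 5, 2 and 2 reads. Only 2 WT libraries reached 1 CPM, so Tle1 entered the tested set through its Utx KO values. Its log2 fold change was 2.53 with 0.1 CPM added and 1.02 with 5 CPM added. Tle4, a co-repressor more abundant than Tle1, fell from 84.8 ± 3.73 to 63.4 ± 6.46 CPM (SD over n = 3, limma adjusted p = 0.0125, up to 0.0888 over the alternatives). Tle1 remained the rarer of the pair, at 0.0155 reads per Tle4 read in WT and 0.125 in Utx KO on the means. Tle3, another co-repressor and more abundant than Tle4, was at 97.9 CPM in WT, against 105 CPM in Utx KO, and did not pass (limma adjusted p = 0.614).

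Bcl9 and Bcl9l, which link beta-catenin to Pygopus, both rose. Bcl9 went from 18.8 ± 0.502 to 30.6 ± 1.92 CPM (SD over n = 3; limma adjusted p = 0.0102, up to 0.126 over the alternatives), and Bcl9l from 79.9 to 103 CPM (limma adjusted p = 0.0314, up to 0.219). Pygo2 did not pass, with a log2 fold change of -0.30 (limma adjusted p = 0.120). Ctnnbip1, which encodes an inhibitor that keeps beta-catenin off TCF factors, rose from 36.1 ± 2.88 to 54.8 ± 9.03 CPM (SD over n = 3; limma adjusted p = 0.00697, up to 0.0731). Called nuclear partners thus included both activators and inhibitors of TCF-dependent transcription.

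Of 14 tested genes of the destruction complex and beta-catenin turnover, none passed in the limma fit, against 10.8% of all tested genes, and 0 had an unadjusted p under 0.05, with a median log2 fold change of 0.05. Neither edgeR (13 tested) nor DESeq2 (15 tested) called any, and both had 0 at that unadjusted p. Among them, Apc was at 42.4 and 36.2 CPM in WT and Utx KO (limma adjusted p = 0.383), Csnk1a1 at 377 and 406 CPM (limma adjusted p = 0.331), and Gsk3a had a log2 fold change of 0.10 (limma adjusted p = 0.744). Of 10 cytoplasmic transducers 1 passed, a share near the 10.8% of all tested genes: Csnk1e, a casein kinase that acts on Dishevelled, rose from 16.4 to 29.4 CPM (limma adjusted p = 0.0133, up to 0.0920). The Dishevelled genes Dvl1, Dvl2 and Dvl3 did not (limma adjusted p = 0.435, 0.0731 and 0.941). At the membrane, the Wnt receptor Ryk rose from 16.8 to 26.5 CPM (limma adjusted p = 0.0406, up to 0.279), and Fzd7, Lrp5 and Lrp6 did not pass (limma adjusted p = 0.912, 0.956 and 0.610). Apcdd1, a membrane inhibitor of Wnt signalling, fell from 3.92 ± 2.23 to 0.513 ± 0.580 CPM (SD over n = 3, limma adjusted p = 0.0222, up to 0.154) on 24 and 3 reads. It entered the tested set through its WT values, since only 1 Utx KO library reached 1 CPM. Its log2 fold change of -1.65 depends on the pseudocount: it was -3.16 with 0.1 CPM added and -0.67 with 5 CPM added.

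Of 5 textbook targets other than Axin2 and Rnf43, 3 could be tested and 1 passed, where 10.8% of all tested genes did. Myc did not pass, at 54.1 and 66.6 CPM in WT and Utx KO (limma adjusted p = 0.336). Cd44 fell from 84.4 to 61.9 CPM (limma adjusted p = 0.00865, up to 0.0769); the cells had been selected for low CD44 before activation. Ccnd1, with 5 and 1 reads, and Nkd1, a feedback inhibitor with 1 and 3 reads, were too low to test.

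**Figure D4:**
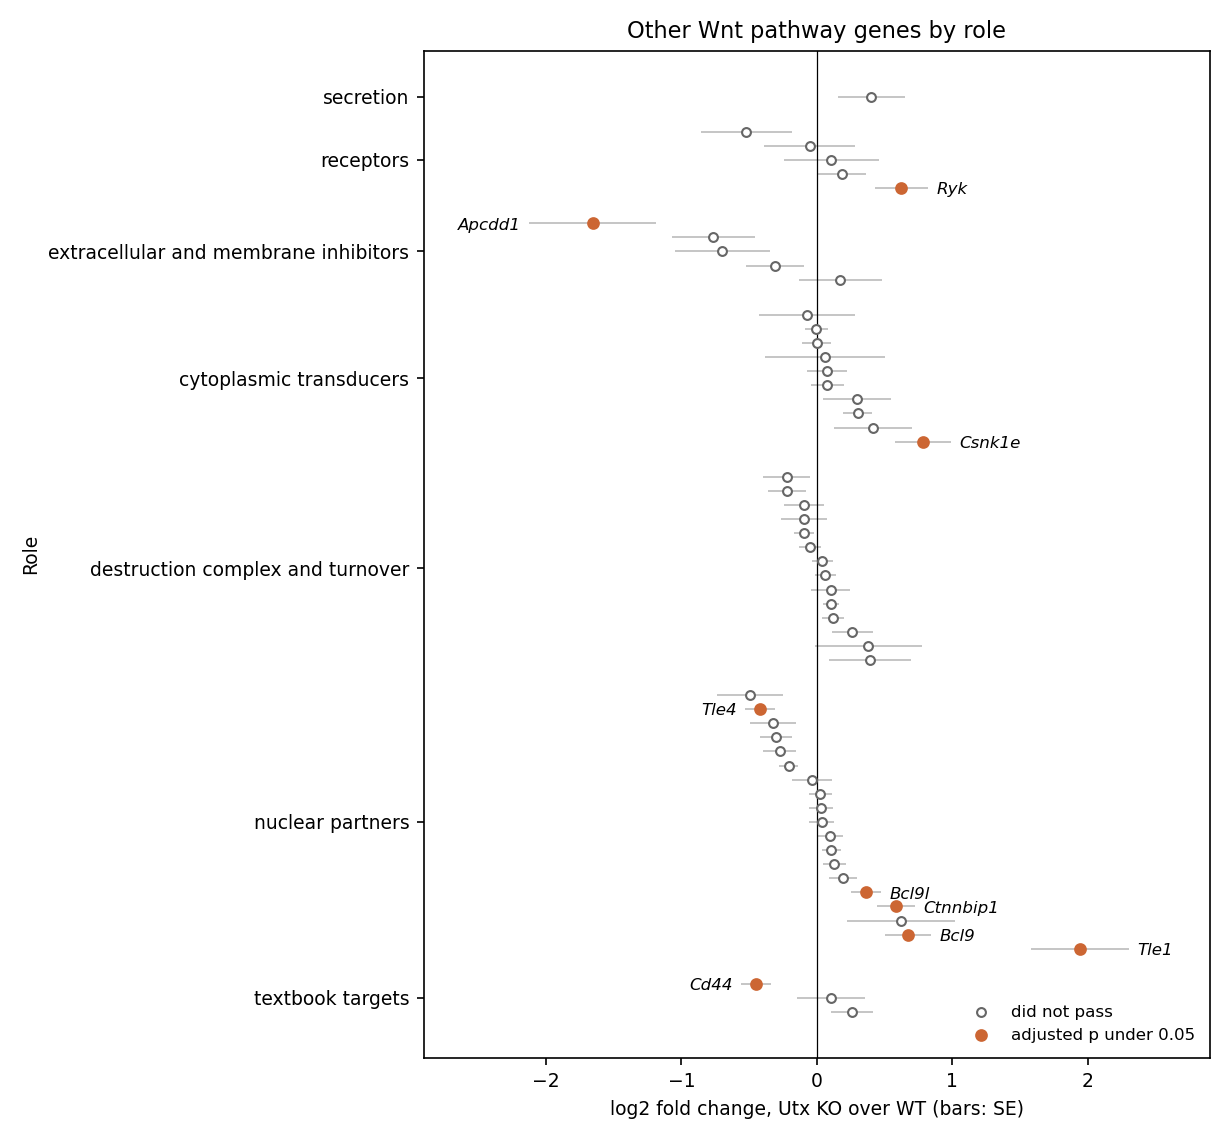
Log2 fold change of Utx KO over WT (bars, SE) for the 57 tested genes of the wider Wnt list, grouped by role; filled points passed an adjusted p under 0.05. The 14 genes of the destruction complex and turnover all lie without a call, and Tle1 (1.94) and Apcdd1 (-1.65) stand farthest from 0. Tle1 had only 9 reads in WT, and Apcdd1 only 3 in Utx KO.

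Genes tied to Tcf1 or Lef1 in CD8 T cells were also counted. This list was written with earlier results of these libraries known and is not independent evidence of a direction. All 17 were tested and 14 passed (10.8% of all tested genes did): on the naive and memory side 7 of 12 rose and 2 fell, and on the effector side 1 of 5 rose and 4 fell. Satb1, a chromatin organizer of T cells, rose from 374 to 594 CPM (limma adjusted p = 2.03e-08). Id3, an inhibitor of E proteins found in memory precursors, rose from 14.0 ± 3.36 to 40.9 ± 3.89 CPM (SD, n = 3), a log2 fold change of 1.503 (limma adjusted p = 3.87e-06). Against the direction of most of its side, Eomes, a T-box factor of memory cells, fell (log2 fold change -0.51, limma adjusted p = 2.33e-05), as did Foxo1. Of the effector genes, Id2, an inhibitor of E proteins, fell from 1321 to 702 CPM (limma adjusted p = 4.12e-13), and Gzmb, the cytotoxic protease granzyme B, from 1283 to 785 CPM (limma adjusted p = 1.79e-08). Prdm1, which encodes the effector factor Blimp-1, fell (log2 fold change -0.96, limma adjusted p = 0.000979), and Il2ra, the high-affinity interleukin 2 receptor chain, rose (log2 fold change 0.31, limma adjusted p = 0.000158).

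The genes whose profile over the 6 libraries lay closest to Lef1 were found among 7441 genes with a mean of at least 10 CPM, by the mean absolute difference of log2(CPM + 1) centred on each gene. Bach2, a repressor of effector genes in T cells, was the nearest at 0.0800, going from 61.8 to 131 CPM on the group means, beside 107 to 248 CPM for Lef1. Klf2, a factor of quiescence and lymphocyte homing, came next at 0.1004, going from 43.4 to 95.8 CPM, followed by Pygm, Thra and Smyd3 at 0.108 to 0.140. Closest to Tcf7 were Mboat2 (0.0503), Ap3s1 (0.0582) and Tfap4 (0.0620). These distances describe likeness over 6 libraries that share the genotype contrast.

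The genes beside the 10 were looked at after their values were seen. Of 18 distinct neighbours, the nearest tested gene on each side, 3 (16.7%) passed, all higher in Utx KO, against 10.8% of tested genes. Supt4a, a transcription elongation factor gene 2.01 kb beyond Rnf43 on the same strand, was at 92.9, 94.0 and 84.8 CPM in WT, against 172, 164 and 145 CPM in Utx KO. It rose by 0.81 on the log2 scale (SE 0.09, limma adjusted p = 8.55e-07) and passed under every alternative. Skp1a, which encodes a subunit of SCF ubiquitin ligases and ends 5.51 kb from Tcf7 on the other strand, rose from 139 to 184 CPM, or by 0.40 on the log2 scale (limma adjusted p = 0.00112), also under every alternative. Rpl14, 355 kb from Ctnnb1, rose by 0.14 (limma adjusted p = 0.0162, missing the threshold without WT replicate 2, at 0.0592, or Utx KO replicate 3). Frat1 and Frat2 are each other's nearest tested gene, 13.4 kb apart and pointing toward each other, and the genes outside the pair, Arhgap19 and Rrp12, did not pass (limma adjusted p = 0.595 and 0.620).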

How the data were processed

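The authors deposited 1 table per library with CPM values for 25655 Ensembl identifiers, per the file headers. The submitters' processing notes name GRCm38 and mm10; the sources used here name no aligner or counter. Values were whole multiples of 1 read for 100% of entries (tolerance 0.001), so reads were recovered. Symbols were found for 25600 identifiers. Libraries were 3' mRNA libraries (QuantSeq kit) from 500 ng of RNA.

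The test was limma-trend (limma 3.58.1, R 4.3.3) on log2(CPM + 1), genotype only, over genes that reached 1 CPM in at least 3 libraries, two-sided, with Benjamini-Hochberg adjustment over all 10590 genes and a threshold of 0.05. The edgeR (4.0.16) quasi-likelihood test and DESeq2 (1.42.0) on recovered reads, other pseudocounts and filters, TMM scaling, a replicate block and leaving out each library were alternatives. Gene positions are from GENCODE M21 (GRCm38). Intervals of pooled ratios are exact conditional binomial (95%).

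The 10 genes and all lists were chosen with earlier results of these data known. Named genes are the 10; of each role in each list up to 4 with the lowest adjusted p under 0.05; a fixed set of pathway genes whatever their result; and the 5 and 3 genes nearest in pattern to Lef1 and Tcf7. Foxo1, Tbl1xr1, the single cell-type markers and the neighbouring genes were chosen after their values were seen.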

Additional observations from a re-analysis of the deposited data

How the results depend on the processing

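Over the alternatives run, Lef1 had log2 fold changes of 1.15 to 1.30, Tcf7 0.54 to 0.69, Sox4 1.43 to 2.24, Sox12 1.26 to 2.02, Frat2 1.37 to 2.04, Axin2 0.47 to 1.04, Frat1 0.63 to 1.51 and Ctnnb1 -0.15 to -0.08. Frat1 was not tested by edgeR or with a filter of 5 CPM. Rnf43 had 1.48 to 3.84, and Gsk3b -0.04 to 0.09, on both sides of 0. DESeq2 called 551 genes in all and 1 gene of the wider Wnt list. Leaving out 1 library gave 747 (without WT replicate 2) to 1056 genes in all and 5 to 9 of the wider Wnt list. The signs of 3 genes that did not pass changed. Fzd7, from -0.17 to 0.49 with 1 library left out, was at -0.17 without WT replicate 1, at -0.04 without the second Utx KO library and at -0.13 without the third. Lrp5, from -0.24 to 0.12, was at 0.12 without WT replicate 2 and 0.09 without Utx KO replicate 1. Dvl3, from -0.36 to 0.19, was at 0.19 without WT replicate 3 and 0.03 without Utx KO replicate 1. The cause was not tested. Genotypes share only replicate numbers: same-numbered libraries had correlations of 0.006, -0.003 and -0.010 in their deviations from the group means. With a replicate block 1065 genes in all, 9 of the wider Wnt list and 14 of the Tcf1 and Lef1 linked genes passed. Depth limits Rnf43, Frat1 and Axin2 most, with 5, 15 and 23 WT reads.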
